A study of Mus musculus with 12 samples.

Results

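The genes described here are 32 mouse genes of the NRF2 pathway and of antioxidant defense, of 57010 genes listed for each library. They were chosen by gene symbol, with earlier results of these data known: the transcription factor and its sensor, enzymes that detoxify quinones and epoxides, genes of heme and iron handling, of glutathione and thioredoxin, of NADPH supply, of peroxide and superoxide removal, and Osgin1. They were measured in ID8 and 28-2, 2 lines of murine ovarian cancer grown as 2D cultures. In each line, an empty vector arm (ID8EV, 28-2EV) was compared with an arm that received lentiviruses for both miR-200 clusters (ID8-200f, 28-2-200f), to ask how miR-200 overexpression changes these cells. Each of the 4 groups had 3 libraries of total RNA, which the study calls independent samples, with 12 libraries in all.

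ID8EV and 28-2EV carried a pLV vector with EGFP, a puromycin marker and an EF1A promoter driving mCherry, and were kept in 30 µg/ml puromycin. ID8-200f and 28-2-200f carried 1 vector with mCherry, a hygromycin marker and the miR-200c/141 cluster behind a CMV promoter, and another with GFP, a puromycin marker and the miR-200b/200a/429 cluster, also behind CMV. ID8-200f was kept in 40 µg/ml puromycin with 50 µg/ml hygromycin, and 28-2-200f in 60 µg/ml puromycin with 1000 µg/ml hygromycin. Hygromycin, the higher puromycin dose and the vectors' other parts therefore came together with the miR-200 clusters, and their parts in any difference between the arms cannot be told apart. In bulk RNA, a different share of cells of a kind and a different RNA level per cell cannot be told apart either. Each arm was 1 transduced line, and whether it was a pool or a clone is not given in the sources used here.

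NRF2, encoded by Nfe2l2, is a transcription factor that KEAP1 holds in the cytoplasm and passes on for degradation. When oxidants or electrophiles modify KEAP1, NRF2 escapes, enters the nucleus, pairs with a small MAF protein and binds antioxidant response elements near genes that make glutathione, reduce thioredoxin, supply NADPH and store iron. Much of this control acts on the NRF2 protein, so the mRNA of Nfe2l2 reports only part of it, and the mRNAs of its targets are the usual readout in RNA data. The miR-200 family touches this pathway in the literature through Keap1, which has been described as a target of miR-200a in human breast cancer cells.

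The mature miRNAs of the 2 clusters are shown because their seeds set which 3′UTRs they can pair with. Capitals mark the seed, bases 2 to 8 (RefSeq, GRCm38.p6), and the 5 sequences fall into 2 seed groups.
mmu-miR-141-3p: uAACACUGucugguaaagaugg
mmu-miR-200a-3p: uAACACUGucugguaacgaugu
mmu-miR-200b-3p: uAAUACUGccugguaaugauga
mmu-miR-200c-3p: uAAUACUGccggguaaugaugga
mmu-miR-429-3p: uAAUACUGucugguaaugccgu
miR-141 and miR-200a share the seed AACACUG, which pairs with CAGTGTT in a transcript, and miR-200b, miR-200c and miR-429 share AAUACUG, which pairs with CAGTATT. In the longest annotated 3′UTR of each gene (GENCODE M21), CAGTGTT was found in 5 of the 32 genes (15.6%), against 17.2% of 21024 mouse genes, and CAGTATT in 3 of 32 (9.4%), against 13.3%. Keap1 had no match of 7 bases for either seed in its 3′UTR of 972 bases, and neither AGTGTT nor AGTATT. Other runs of 6 bases from the seed matches were not searched. A match is a run of letters and not a measured site.

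The 6 genes with a match were Slc7a11, Gclc, Srxn1, Txnip, Sod2 and Osgin1. Windows of 29 bases are shown from 3 of them, with the match in capitals. Txnip had the most matches to one seed, and Osgin1 rose in both lines. The match at base 1058 of Slc7a11 is the only one that an adenine extends.
Txnip, base 61 of the 3′UTR: tgcttgaactcCAGTGTTtcagagactca
Osgin1, base 606 of the 3′UTR: ggaccaccaagCAGTGTTccaggacccac
Slc7a11, base 1058 of the 3′UTR: ccatttatatgCAGTGTTagtaattactc
Txnip had further CAGTGTT matches at bases 465 and 1063. Slc7a11 had a further CAGTGTT match at base 5155 and a CAGTATT match at base 4364. Of these 6 genes, 3 rose in ID8-200f (Gclc, Srxn1, Osgin1), 1 fell (Txnip) and 2 did not pass the test, as given below with their values. Among all 31 members tested, 51.6% rose and 9.68% fell in ID8-200f, against 17.0% and 19.0% of all genes.

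Total counts were 16390953 to 23063875 per library. The genes of the 5 miRNAs had 0 counts in all 12 libraries, so these libraries do not measure the mature miRNAs and the labels could not be checked by them. Markers of ovarian surface and mesothelial cells, with none of 9 at 0, summed to 6013 to 7238 CPM in ID8EV and 5656 to 6156 CPM in ID8-200f, and to 4252 to 5153 CPM in 28-2EV and 6546 to 9428 CPM in 28-2-200f. Of the 9, 5 lay higher in every 200f library of both lines than in the empty vector libraries (Msln, Krt7, Krt8, Krt18, Krt19) and 3 lower (Wt1, Upk3b, Lrrn4). Krt7 went from 1.80 to 2.25 CPM in ID8EV to 93.0 to 101.0 CPM in ID8-200f and from 0.272 to 1.68 CPM in 28-2EV to 172 to 1206 CPM in 28-2-200f, and Upk3b from 1192 to 1844 CPM to 280 to 398 CPM in ID8. The part of these shifts in the results below was not tested. In the same libraries, immune markers summed to at most 4.058 CPM (4 of 8 at 0 in every library), endothelial markers to at most 3.354 CPM (2 of 6 at 0) and red cell markers to at most 0.6837 CPM (4 of 5 at 0). Replicates of 28-2 lay farther apart than those of ID8. The SD of a library's log2 deviations from its group was 0.202 to 0.266 in ID8 and 0.302 to 0.566 in 28-2, with 28-2EV replicate 2 farthest out. Over the members alone the range was 0.0634 to 0.141 in ID8 and 0.163 to 0.366 in 28-2, and the median standard error of a member's log2 fold change was 0.0908 in ID8 and 0.198 in 28-2.

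Levels of different genes are compared by TPM, which divides by gene length. The ferritin chains stood highest in all 4 groups: Ftl1, the light chain of the iron store, had 2163 ± 67.4 TPM and Fth1, the heavy chain, 1322 ± 54.2 TPM (mean ± SD, n = 3) in ID8EV. Thioredoxin (Txn1), malic enzyme (Me1) and peroxiredoxin (Prdx1) followed in the same order in all 4 groups, at 890.3 ± 102.3, 704.9 ± 26.3 and 600.7 ± 34.0 TPM in ID8EV. The lowest of the detected members in all 4 groups was Slc7a11, the cystine importer, at 3.17 ± 0.303 TPM in ID8EV. Gpx2, a glutathione peroxidase of the gut lining, had at most 3 reads in any library, reached 0.182 CPM in the highest and was too low to test. Osgin1 changed its place most among the members in ID8, from the 19th by TPM in ID8EV to the 8th in ID8-200f, and Slc48a1 moved from the 8th to the 15th.

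**Figure D1:**
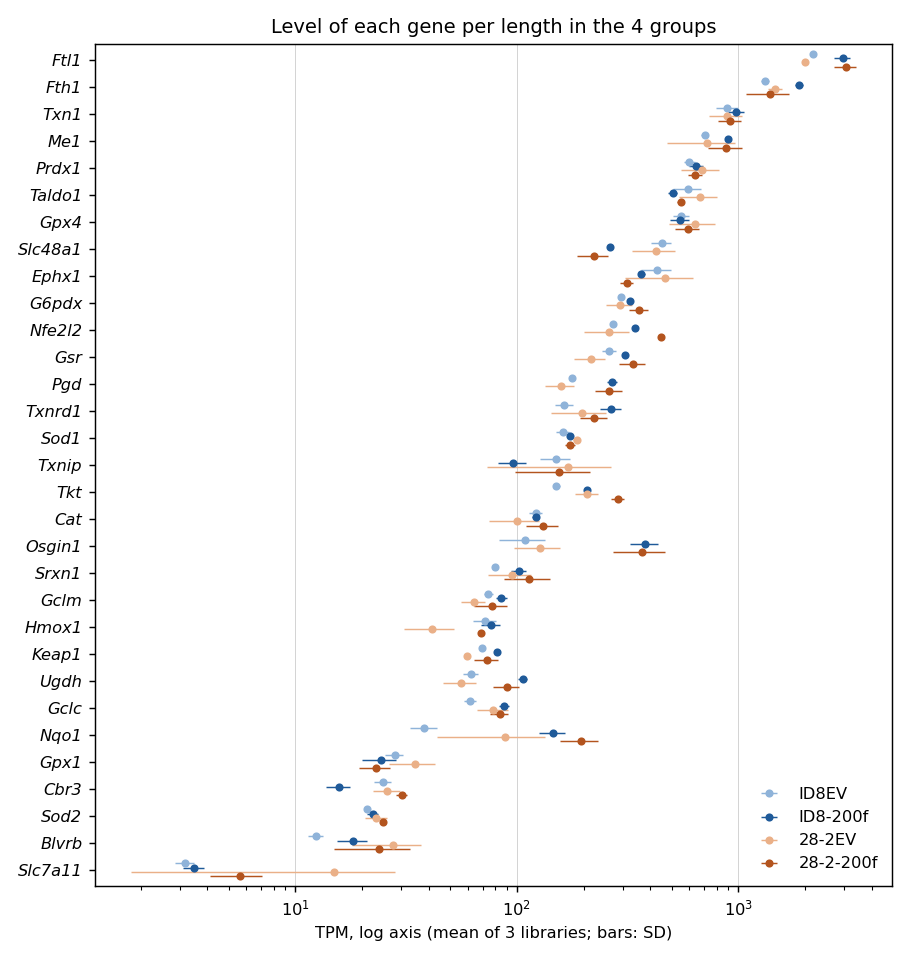
Mean TPM of each of the 31 detected genes (rows, ordered by the mean in ID8EV) in the 4 groups on a log axis, with bars for the SD over 3 libraries. Ftl1 and Fth1 lead in every group and Slc7a11 is lowest, and the points of Osgin1 and Nqo1 lie to the right in both 200f groups.

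In ID8, 16 of the 31 genes tested were higher in ID8-200f than in ID8EV at an adjusted p under 0.05 (51.6%), 3 were lower (9.68%) and 12 did not pass the test. The background was 17.0% of 13280 genes higher and 19.0% lower. Since the members were chosen with earlier results of these data known, this contrast is not an independent test of the list. The median log2 fold change of the 31 was 0.23, against -0.0011 over all genes tested, and 25 of the 31 were above 0. The genes that rose held the factor and its sensor, both ferritins, the enzymes of glutathione synthesis and recycling, thioredoxin reductase, and enzymes that supply NADPH. None of the 5 tested members listed for peroxide and superoxide removal passed. With all 4 groups in one fit, which shares 1 estimate of the spread between the lines, 9 were higher in ID8, with 2.65% of all genes, and 1 lower, with 4.75%. Nfe2l2 (adjusted p = 0.123) and Keap1 (adjusted p = 0.136) were among those that no longer passed. In 28-2, 1 of 31 genes was higher (Osgin1, 3.23%) and 0 were lower, with a background of 2.26% of 12679 genes higher and 2.18% lower. At an unadjusted p under 0.05, 9 were higher in 28-2 (29.0%, with 9.62% of all genes) and 2 lower (6.45%, with 10.5%). DESeq2 called 8 higher in 28-2, with 4.22% of all genes, and 1 lower, with 4.43%. The fit of all 4 groups called 10 higher in 28-2, with 9.12% of all genes, and 1 lower, with 7.95%. Nfe2l2 (adjusted p = 0.00203) and Keap1 (adjusted p = 0.0457) were among those 10.

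**Figure D2:**
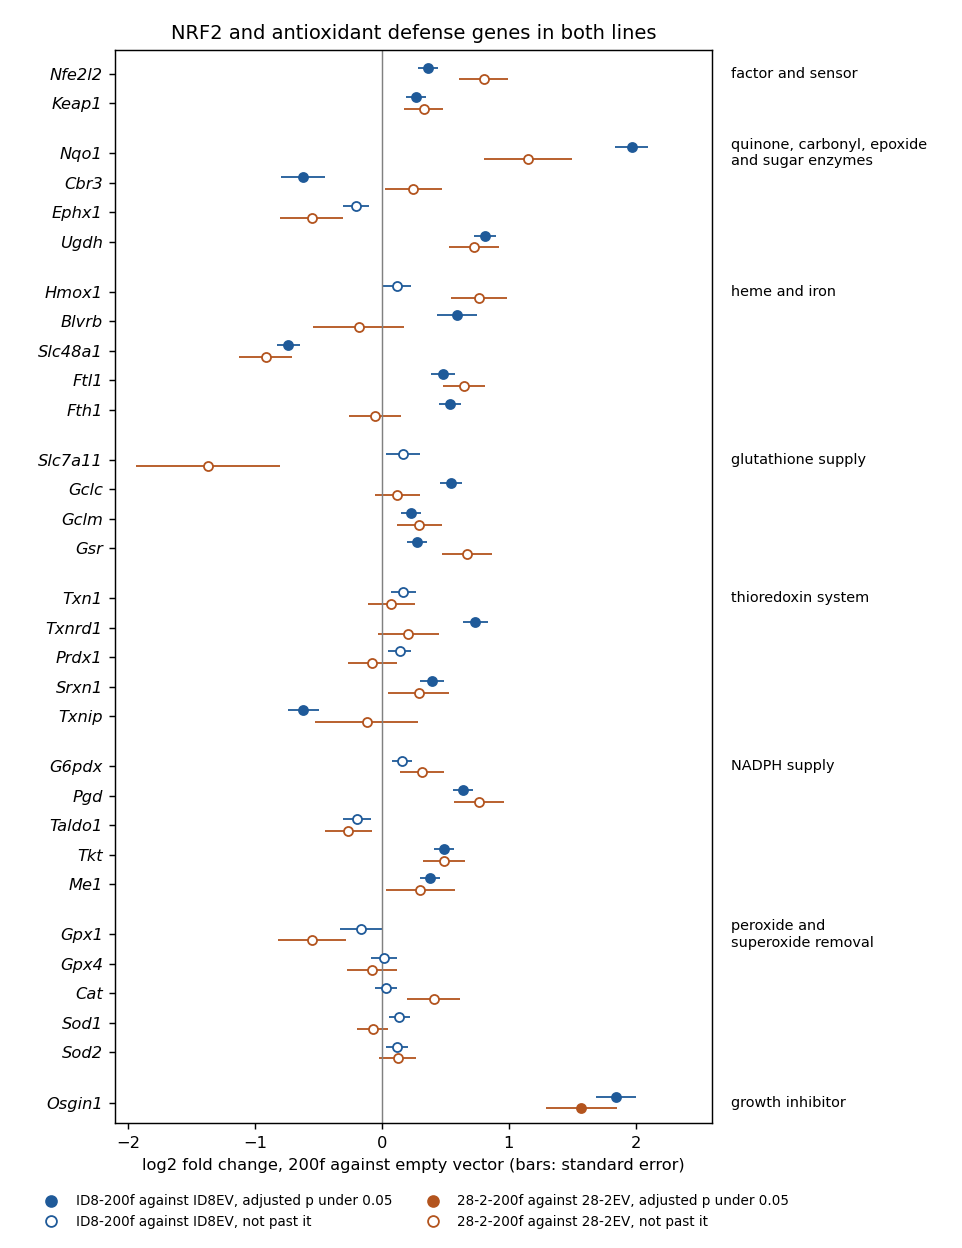
Fitted log2 fold change of each tested gene, 200f against empty vector, in ID8 (blue) and 28-2 (brown), grouped by role, with bars for the standard error. Filled points passed an adjusted p under 0.05. Nqo1 and Osgin1 lie farthest right, Slc48a1 lies left of 0 in both lines, and the brown bars are the longer ones.

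Nfe2l2 itself was higher in ID8-200f, with 332, 359 and 340 CPM against 267, 264 and 260 CPM in ID8EV, and the groups did not overlap. CPM here and below are a gene's counts relative to its library's total, scaled with TMM factors over all 12 libraries. The log2 fold change was 0.36 ± 0.08 (SE; adjusted p = 0.00262). In 28-2, the values were 455, 513 and 484 CPM in 28-2-200f against 249, 223 and 343 CPM in 28-2EV, again without overlap, with a log2 fold change of 0.80 ± 0.19 that did not pass (adjusted p = 0.0648). It passed in 4 of the 16 settings tried, and the highest adjusted p among them all was 0.237. DESeq2 (adjusted p = 0.00783) and the fit without 28-2EV replicate 3, the highest of its group (1.01, adjusted p = 0.0385), were among the 4.

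Keap1, which encodes the sensor that holds NRF2 back, was also higher in ID8-200f as mRNA, and its protein was not measured. It had 102, 105 and 98.6 CPM in ID8-200f against 82.8, 83.7 and 84.0 CPM in ID8EV, a log2 fold change of 0.27 ± 0.08 (adjusted p = 0.0165). That call did not hold without ID8EV replicate 1 (adjusted p = 0.0508) or without ID8EV replicate 2 (adjusted p = 0.0623). In 28-2 the values were 86.4, 116 and 92.5 CPM against 75.2, 79.2 and 75.9 CPM, without overlap, at 0.33 ± 0.15 (adjusted p = 0.285). Of the bases of Keap1's exons, 10.9% are also covered by the gene model Gm16754, and without a known strand setting those reads cannot be assigned.

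Nqo1, the quinone reductase that is the textbook NRF2 target, had the largest rise of the members in ID8. It had 54.6, 70.8 and 54.9 CPM in ID8-200f against 17.4, 14.3 and 13.9 CPM in ID8EV, a fold of 3.92 (log2 1.97 ± 0.13, adjusted p = 1.44e-07). In 28-2 it had 90.4, 97.9 and 69.2 CPM in 28-2-200f against 24.3, 60.6 and 28.9 CPM in 28-2EV. The 28-2 groups did not overlap, but 28-2EV replicate 2 lay near the 200f libraries, and the log2 fold change of 1.15 ± 0.35 did not pass (adjusted p = 0.120, and 0.0194 with DESeq2). Without that library it was 1.66 (adjusted p = 0.00645). Nqo1 passed in 28-2 in 4 of the 16 settings, with an adjusted p of up to 0.347.

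Ugdh, which makes the UDP-glucuronate used for glucuronidation, rose in ID8-200f to 182, 202 and 189 CPM from 109, 115 and 98.2 CPM (log2 0.81 ± 0.09, adjusted p = 1.04e-05). Its 28-2 values were 138, 202 and 185 CPM against 102, 122 and 86.8 CPM, without overlap, and the log2 fold change of 0.73 ± 0.20 did not pass (adjusted p = 0.0876, and 0.0273 with DESeq2). Cbr3, a carbonyl reductase, went the other way in ID8, with 5.46, 5.88 and 4.42 CPM against 7.10, 8.61 and 8.25 CPM (-0.62 ± 0.17, adjusted p = 0.0137). That fall was lost without ID8EV replicate 2 (adjusted p = 0.0621) or ID8-200f replicate 3 (adjusted p = 0.0616), and in 28-2 Cbr3 overlapped, with 9.52, 11.9 and 11.2 CPM against 8.04, 8.35 and 10.5 CPM (0.25 ± 0.22). Ephx1, the microsomal epoxide hydrolase, passed in neither line (-0.20 ± 0.11 in ID8 and -0.55 ± 0.25 in 28-2). Without 28-2EV replicate 2 its 28-2 value was -0.78 (adjusted p = 0.0286).

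In heme and iron handling, genes that store iron rose in ID8 and a heme transporter fell. Ftl1 had 1026, 1170 and 965 CPM in ID8-200f against 707, 770 and 753 CPM in ID8EV (0.48 ± 0.09, adjusted p = 0.00124). Its 28-2 values separated as well, at 1071, 1354 and 1086 CPM against 740, 720 and 741 CPM, with 0.65 ± 0.16 (adjusted p = 0.0740, and 0.00645 with DESeq2). The annotation names 2 pseudogenes of Ftl1, and other gene models cover 34.6% of its exon bases, so its counts are uncertain. Fth1 had 1677, 1849 and 1666 CPM against 1113, 1238 and 1176 CPM in ID8 (0.54 ± 0.09, adjusted p = 3.95e-04), whereas its 28-2 groups overlapped (1377, 1661 and 1068 CPM against 1308, 1349 and 1522 CPM, -0.05 ± 0.21).

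Slc48a1, which moves heme out of endolysosomes into the cytosol, was the member with the largest fall in ID8. It had 194, 195 and 190 CPM in ID8-200f against 282.2, 317.7 and 353.1 CPM in ID8EV (-0.74 ± 0.09, adjusted p = 3.52e-05). In 28-2 it had 174, 201 and 147 CPM against 306, 260 and 400 CPM, with no overlap, at -0.92 ± 0.21 and an adjusted p of 0.0547, just outside the threshold (0.00566 with DESeq2). Blvrb, a biliverdin and flavin reductase, rose in ID8 to 14.3, 15.3 and 10.9 CPM from 8.23, 9.71 and 8.55 CPM (0.59 ± 0.16, adjusted p = 0.00962). In 28-2 it overlapped, with 17.0, 27.3 and 12.7 CPM against 14.0, 29.0 and 20.5 CPM. Hmox1, the heme oxygenase that opens the heme ring and a strongly inducible NRF2 target in many cells, did not pass in ID8 or in 28-2. It overlapped in ID8 (31.9 to 37.4 CPM against 27.6 to 34.7 CPM, 0.11 ± 0.11), and in 28-2 its 31.4, 36.3 and 35.9 CPM lay above 20.2, 14.7 and 24.9 CPM at 0.76 ± 0.22 (adjusted p = 0.104, but 0.0373 with DESeq2 and 0.00991 with all 4 groups in one fit).

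In glutathione supply, 3 of 4 genes rose in ID8, with 17.0% of all genes. Gclc, the catalytic subunit of glutamate-cysteine ligase, had 83.7, 93.6 and 86.2 CPM in ID8-200f against 61.0, 61.8 and 55.3 CPM (0.55 ± 0.09, adjusted p = 3.24e-04), while in 28-2 the groups overlapped at 75.2, 100.8 and 94.4 CPM against 70.8, 96.8 and 75.9 CPM (0.12 ± 0.18). Gclm, its modifier subunit, had 134, 151 and 143 CPM against 124, 120 and 115 CPM in ID8 (0.23 ± 0.08, adjusted p = 0.0421), but it passed in only 5 of the 16 settings tried, the fewest among the 16 genes that rose. In 28-2 Gclm overlapped, with 127.0, 168 and 121 CPM against 96.6, 127.2 and 108 CPM (0.30 ± 0.18). Gsr, which reduces oxidized glutathione with NADPH, had 224, 229 and 225 CPM against 195, 185 and 171 CPM in ID8 (0.28 ± 0.08, adjusted p = 0.0157, and 0.0549 without ID8EV replicate 2). In 28-2 Gsr had 209, 303 and 283 CPM against 141, 195 and 153 CPM, without overlap, at 0.67 ± 0.20 (adjusted p = 0.111, and 0.0489 with DESeq2).

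Slc7a11, the cystine importer that feeds glutathione synthesis, had 1 library far above the rest in 28-2. In ID8 it did not pass, at 12.3, 12.1 and 14.1 CPM in ID8-200f against 12.2, 11.4 and 10.3 CPM in ID8EV (0.17 ± 0.14, adjusted p = 0.365). In 28-2EV it had 113, 32.8 and 24.3 CPM, against 19.3, 29.8 and 17.9 CPM in 28-2-200f, so that 28-2EV replicate 1 stood at more than 3 times any other library. The 28-2 log2 fold change of -1.37 ± 0.57 (adjusted p = 0.234) became -0.37 (adjusted p = 0.654) without that library. Other genes of the lists used here were also highest in it: Chac1, a glutathione-degrading enzyme, with 92.6, 22.3 and 10.96 CPM in 28-2EV, Slc3a2, the partner chain of the cystine importer, with 510, 329 and 170 CPM, and Sesn2, a sestrin, with 129, 47.6 and 54.6 CPM. These 3 genes were chosen after their values were seen. All 4 genes are known targets of the stress factor ATF4 as well as members or neighbours of the NRF2 pathway, and the part of that response in 28-2EV replicate 1 was not tested.

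**Figure D3:**
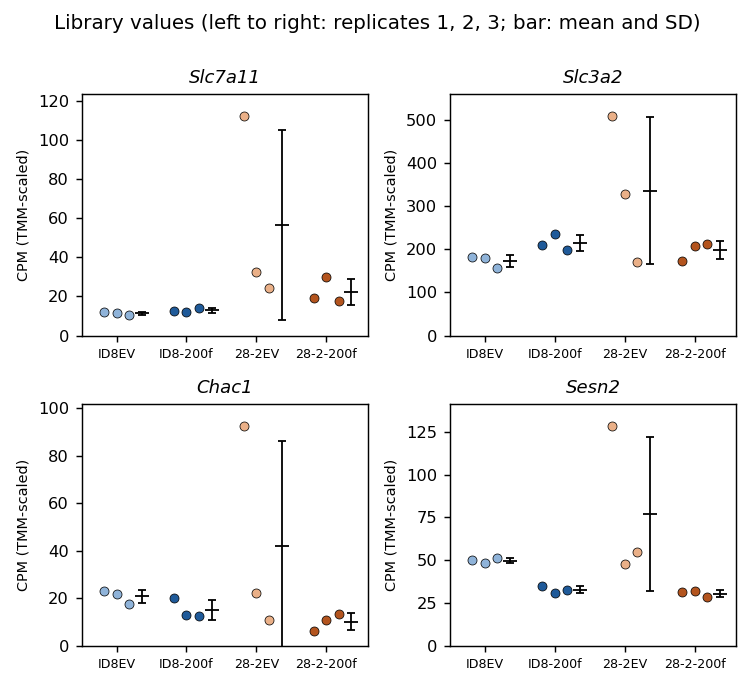
CPM of Slc7a11 and of 3 genes chosen after their values were seen, by library, in the 4 groups, with a bar for the mean and SD of 3 libraries (for Chac1 in 28-2EV the lower bar is cut at 0). The first 28-2EV library is the highest of all 12 for each gene, at 113 CPM for Slc7a11.

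In the thioredoxin system, Txnrd1, the reductase that keeps thioredoxin reduced, rose most in ID8. It had 445, 563 and 497 CPM in ID8-200f against 320, 301 and 270 CPM in ID8EV (0.74 ± 0.10, adjusted p = 9.09e-05). In 28-2, Txnrd1 overlapped at 359, 530 and 471 CPM against 336, 512 and 306 CPM (0.21 ± 0.24), with 28-2EV replicate 2 again the high control library. Srxn1, which restores overoxidized peroxiredoxins, had 73.7, 84.6 and 71.0 CPM against 57.7, 56.9 and 57.4 CPM in ID8 (0.39 ± 0.09, adjusted p = 0.00421). In 28-2 Srxn1 overlapped, with 82.3, 118 and 74.4 CPM against 54.5, 87.7 and 78.3 CPM (0.29 ± 0.24). Thioredoxin itself (Txn1) and the peroxiredoxin Prdx1 passed in neither line, with log2 fold changes of 0.17 and 0.14 in ID8 and of 0.07 and -0.07 in 28-2.

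Txnip, which binds and inhibits thioredoxin and is best known as a glucose-induced gene, fell in ID8. It had 87.3, 67.8 and 84.1 CPM in ID8-200f against 103, 118 and 141 CPM in ID8EV (-0.62 ± 0.12, adjusted p = 0.00136). In 28-2 it overlapped widely, with 184, 114 and 112 CPM against 117, 79.9 and 239 CPM (-0.12 ± 0.41), and the sign of the difference depended on single libraries. The antisense gene model Gm15441 covers 19.4% of its exon bases, so part of its reads cannot be assigned without a known strand setting.

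In NADPH supply, 3 of 5 genes rose in ID8, with 17.0% of all genes, among them 2 of the 4 pentose phosphate enzymes. Pgd, the phosphogluconate dehydrogenase of the oxidative branch, had 437, 495 and 455 CPM in ID8-200f against 295, 291 and 292 CPM (0.64 ± 0.08, adjusted p = 4.93e-05). Its 28-2 values of 408, 576 and 464 CPM against 229, 289 and 319 CPM separated as well (0.76 ± 0.20, adjusted p = 0.0780, and 0.015 with DESeq2). G6pdx, the first enzyme of that branch, passed in neither line (0.16 ± 0.08 in ID8 and 0.32 ± 0.17 in 28-2). Tkt, the transketolase of the non-oxidative branch, had 409, 409 and 394 CPM against 278, 277 and 296 CPM in ID8 (0.49 ± 0.08, adjusted p = 3.13e-04) and 537, 670 and 594 CPM against 390, 388 and 478 CPM in 28-2 (0.49 ± 0.17, adjusted p = 0.153). Taldo1, the transaldolase and the other member of that branch, passed in neither line, at -0.20 ± 0.11 and -0.26 ± 0.18. Me1, the cytosolic malic enzyme, rose in ID8 from 675, 683 and 728 CPM to 928, 922 and 898 CPM (0.38 ± 0.08, adjusted p = 0.00263). In 28-2 it overlapped, with 1080, 892 and 906 CPM against 849, 472 and 964 CPM (0.30 ± 0.27), and 28-2EV replicate 2 was the lowest.

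The 5 tested members listed for peroxide and superoxide removal passed the test in neither line. Gpx1 and Gpx4, glutathione peroxidases, Cat, the peroxisomal catalase, and Sod1 and Sod2, the cytosolic and mitochondrial superoxide dismutases, had log2 fold changes from -0.16 to 0.14 in ID8, and 0 of 5 passed. In 28-2 they ran from -0.55 ± 0.27 (Gpx1, 7.92, 8.96 and 11.7 CPM against 10.3, 17.0 and 13.8 CPM) to 0.41 ± 0.21 (Cat), and 0 of 5 passed. A miss does not show that they are equal. Of 9 other peroxide and superoxide enzymes tested in ID8, 1 was higher and 2 were lower, with 17.0% and 19.0% of all genes.

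Osgin1, a growth inhibitor induced by oxidative stress, was the 1 member that passed in both lines. It had 243, 321 and 246 CPM in ID8-200f against 86.2, 82.3 and 54.4 CPM in ID8EV, a fold of 3.59 (log2 1.84 ± 0.16, adjusted p = 1.25e-06). In 28-2-200f it had 191, 291 and 367 CPM against 74.3, 120 and 86.3 CPM in 28-2EV, a fold of 2.97 (log2 1.57 ± 0.28, adjusted p = 0.0244). The groups did not overlap in either line. The 28-2 call passed in 12 of 16 settings and was lost without 28-2EV replicate 1 (1.44, adjusted p = 0.101), 28-2EV replicate 3 (1.52, adjusted p = 0.0786), 28-2-200f replicate 2 (1.56, adjusted p = 0.105) or 28-2-200f replicate 3 (1.35, adjusted p = 0.0749). The study named Osgin1 from these same samples, so its direction is not independent evidence. At the study's cut-off, which asks for a log2 fold change above 1 or below -1 at an FDR under 0.01, Nqo1 and Osgin1 were the 2 members that passed in ID8 with edgeR, where 7.41% of all genes did, and 0 members passed in 28-2, where 0.757% of all genes did. With DESeq2, Osgin1 passed that cut-off in 28-2 too (1.59, adjusted p = 1.2e-05), where 4.65% of all genes did.

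**Figure D4:**
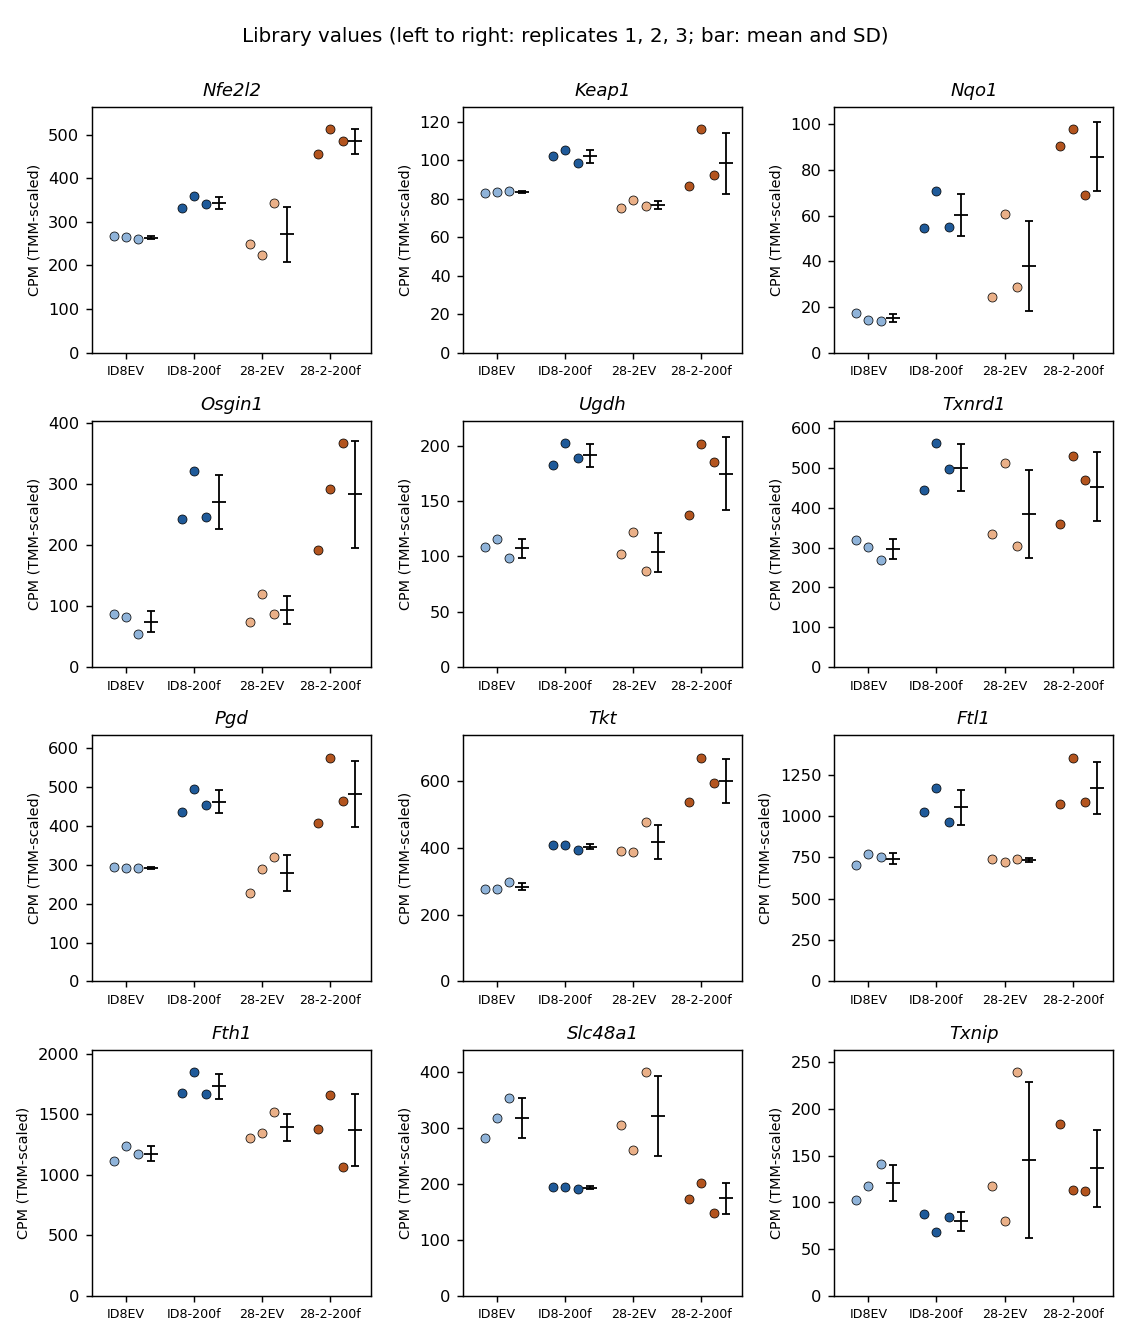
CPM of 12 members by library (replicates 1 to 3 from left to right) in the 4 groups, with a bar for the mean and SD of 3 libraries. In the panels of Nfe2l2, Nqo1, Osgin1, Ugdh, Pgd and Ftl1 the 200f libraries lie above the empty vector libraries of the same line, in that of Slc48a1 they lie below, and in those of Txnrd1, Fth1 and Txnip the 28-2 groups overlap.

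Within the 200f groups, single libraries held most of the highest values. ID8-200f replicate 2 was the highest of its 3 libraries for 22 of 31 members, and 28-2-200f replicate 2 for 24 of 31. The same count was not made over all genes, so the pattern is not shown to be particular to the members. Without ID8-200f replicate 2, 15 members were higher and 3 lower in ID8, with 12.1% and 15.1% of all genes. Without ID8EV replicate 1, 5 were lower, as Ephx1 and Taldo1 were added, with 18.1% of all genes, and without ID8EV replicate 2, 13 were higher and 2 lower, with 12.4% and 15.1%. In 28-2, leaving out 28-2EV replicate 2 gave 4 higher (Osgin1, Nqo1, Ugdh and Gsr) and 2 lower (Slc48a1 and Ephx1), with 5.06% and 5.49% of all genes. Without 28-2EV replicate 3, 1 was higher (Nfe2l2, with 1.23% of all genes), and without 28-2-200f replicate 1, 1 (Osgin1, 1.12%). Leaving out 28-2EV replicate 1 or 28-2-200f replicate 2 or 3 called 0 members, with 0.586%, 0.534% and 1.08% of all genes higher. Over the 16 settings in 28-2, Slc48a1 passed in 4, Ugdh, Gsr and Pgd in 3 each, and Ftl1 in 2.

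The direction of the members in the 2 lines could be set side by side, since the lines share no library. Of the 31 members, 19 had a positive log2 fold change in both lines (61.3%), 5 a negative one in both and 7 opposite signs, while of the 12498 genes tested in both lines 33.3% were positive in both and 33.7% negative in both. Here too, the members were chosen with earlier results known, so the contrast is not an independent test. The 7 with opposite signs were Cbr3, Blvrb, Fth1, Slc7a11, Prdx1, Gpx4 and Sod1. The difference between the lines in the 200f effect, tested as an interaction over all 12 libraries, was called for 0 of the 31 members, with a background of 2.26% of 13620 genes higher and 0.712% lower, and at an unadjusted p under 0.05 for 3 higher (Nfe2l2, Cbr3, Hmox1) and 2 lower (Fth1, Slc7a11), with 9.38% and 6.54% of all genes. Cbr3, lower in ID8-200f and not in 28-2-200f, had the smallest p, with a difference of 0.88 ± 0.26 (adjusted p = 0.109). It passed with DESeq2 (adjusted p = 0.0381) and with limma on log2(TPM + 1) (adjusted p = 0.0364). Without 28-2EV replicate 3 the difference of Nfe2l2 was 0.65 (adjusted p = 0.0249). The effects in ID8 and 28-2 are thus not shown to differ for any member, although 19 passed in ID8 and 1 in 28-2.

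Between the empty vector lines, 0 of 31 members were called, with a background of 0.887% of 13073 genes higher in 28-2EV and 2.52% lower. At an unadjusted p under 0.05, 6 were higher in 28-2EV (Nqo1, Blvrb, Slc7a11, Gclc, Tkt, Sod1) and 1 lower (Hmox1), with 7.43% of all genes higher and 9.13% lower. DESeq2 called 4 higher (Nqo1, Blvrb, Slc7a11, Tkt), with 2.05% of all genes. Without 28-2EV replicate 1, 2 or 3, the test called 2, 5 and 1 higher, with 0.418%, 4.90% and 2.13% of all genes. Without ID8EV replicate 1, 2 or 3 it called 0 members, with 0.0822%, 0.0898% and 0.127% of all genes higher. Slc7a11 had the largest difference, with 113, 32.8 and 24.3 CPM in 28-2EV against 12.2, 11.4 and 10.3 CPM in ID8EV (2.33 ± 0.56, adjusted p = 0.0817), and all 28-2EV libraries lay above all ID8EV libraries. Without the high library, 28-2EV replicate 1, it was 1.36 with an adjusted p of 0.0322. Without ID8EV replicate 1, 2 or 3 the adjusted p of Slc7a11 was 0.271, 0.291 and 0.321. Blvrb, at 14.0, 29.0 and 20.5 CPM against 8.23, 9.71 and 8.55 CPM, came nearest to the threshold (1.26 ± 0.27, adjusted p = 0.0566). Nfe2l2 and Keap1 were close in the 2 lines, at 0.05 ± 0.18 and -0.11 ± 0.10.

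The antioxidant response element core TGACNNNGC was searched on both strands of the 300 bases from 250 before to 50 after each annotated start (RefSeq, GRCm38.p6), because NRF2 binds such elements. It was found for 10 of 28 members with a promoter in the table (35.7%), against 14.0% of 27025 genes. Among members that rose in ID8, 7 of 14 had it (Nfe2l2, Ugdh, Gclm, Txnrd1, Srxn1, Pgd and Me1), among those that fell 0 of 2, and among those not called 3 of 11 (Prdx1, G6pdx and Sod1). The list was made of genes of the NRF2 pathway, with earlier results of these data known. These contrasts are therefore not independent tests. A gene was counted if any of its annotated starts had a match. Txnrd1, Me1 and Pgd also have starts without one, and the match of Pgd begins 3 bases after its downstream start. Windows are shown for 4 that rose, read on the gene's strand, with the core or its reverse complement in capitals.
Gclm, chr3:122245408-122245446, plus strand: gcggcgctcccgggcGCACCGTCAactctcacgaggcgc
Txnrd1, chr10:82859099-82859137, plus strand: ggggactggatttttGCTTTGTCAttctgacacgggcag
Ugdh, chr5:65435951-65435989, minus strand: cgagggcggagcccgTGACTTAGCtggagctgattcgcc
Me1, chr9:86695897-86695935, minus strand: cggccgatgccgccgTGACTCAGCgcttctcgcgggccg
The core of Me1 begins 6 bases before an annotated start site and runs across it, and that of Txnrd1 begins 92 bases before an annotated start site. Nqo1 and Osgin1, with the largest rises, are not among the matches, which says only that these letters are not in this window.

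Of 83 further genes of the pathway, 78 were tested in ID8, of which 14 were higher (17.9%, with 17.0% of all genes) and 19 lower (24.4%, with 19.0%). Among NRF2's partners and regulators 1 of 13 was higher and 2 were lower, among other glutathione and thioredoxin genes 7 and 7 of 28, among other peroxide and superoxide enzymes 1 and 2 of 9, and among other target and NADPH genes 5 and 8 of 28. The 4 higher genes with the smallest adjusted p were Rpia, the ribose phosphate isomerase of the pentose phosphate pathway (57.2, 55.4 and 53.9 CPM against 22.8, 23.1 and 22.2 CPM, log2 1.27 ± 0.09), Maff, a small MAF partner (0.87 ± 0.13), Tfrc, the transferrin receptor (0.89 ± 0.13), and Glrx5, a mitochondrial glutaredoxin (0.58 ± 0.09). The log2 fold change of Rpia was above those of Pgd and Tkt, its neighbours in the pathway.

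The 4 lower genes with the smallest adjusted p in ID8 were Nfe2l3, the NRF2 relative NRF3 (20.6, 15.2 and 19.0 CPM against 53.0, 61.0 and 74.9 CPM, -1.81 ± 0.14), Ces2g, a carboxylesterase (-1.91 ± 0.15), Pon3, a paraoxonase (-1.66 ± 0.16), and Abhd4, a phospholipid hydrolase (-0.80 ± 0.10). In 28-2, 0 of 79 were higher and 2 were lower (2.53%, with 2.18% of all genes lower and 2.26% higher). Nfe2l3 fell there too, from 38.1, 44.4 and 72.3 CPM to 24.6, 20.8 and 15.1 CPM (-1.38 ± 0.30, adjusted p = 0.0466). Ugt1a7c, a UDP-glucuronosyltransferase, fell from 5.86, 1.66 and 4.43 CPM to 0.228, 0.315 and 0.122 CPM (-4.16 ± 0.64, adjusted p = 0.0165), and since its exons are shared with other genes of the Ugt1a cluster its counts are uncertain. At an unadjusted p under 0.05, 7 of these genes were higher in 28-2 (8.86%, with 9.62% of all genes) and 17 lower (21.5%, with 10.5%). The interaction was called for 1 of 80, Pon3, and between the empty vector lines Adh7, an alcohol dehydrogenase, was higher in 28-2EV (3.90 ± 0.55, adjusted p = 0.0124) and Pon3 lower (-1.17 ± 0.19, adjusted p = 0.0187).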

How the data were processed

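RNA sequencing of 12 libraries was analysed as 3 libraries for each of 4 groups, grouped by their labels. The authors deposited whole read counts per gene, TPM and CPM; per the methods, the Genialis pipeline (version 3.0) used BBDuk for trimming, STAR for alignment and featureCounts for counting, on GRCm39 per the submitters' processing notes. The deposited CPM equal the count divided by the library total, and the TPM were computed by the authors' pipeline. The versions of these tools, the annotation and the strand setting are not given in the sources used here. Each file held 1 library, and no column of the authors' own comparisons was used.

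Counts were tested with edgeR 4.0.16 (quasi-likelihood test with TMM scaling, after filterByExpr at 10 counts per library and 15 in total) in R 4.3.3, each line alone, with the interaction over all 12 libraries, and p-values were adjusted over all genes tested by the Benjamini-Hochberg method. Standard errors are the log2 fold change over the square root of F. Printed CPM were recomputed with TMM factors over all libraries. The script was tested on simulated data. Alternatives were RLE or library size scaling, no filter, 1 CPM in 3 libraries, a replicate block, all 4 groups in one fit, DESeq2 1.42.0, limma 3.58.1 on log2(TPM + 1) and log2(TPM + 0.1), and leaving out each library. Shares of all genes are over the genes with an adjusted p in that fit. Python 3.11.15 was used.

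Depth was 16390953 to 23063875 counts per library. Counts of replicates differed by more than counting error (a chi-square over its degrees of freedom between 5.42 and 23.0 in ID8, and between 28.8 and 145.1 in 28-2), so no library was taken as a repeat. The members and lists were chosen with earlier results of these data known. Library values are given for Nfe2l2, Keap1 and each member called in a line, in the interaction or at the study's cut-off, with some others beside them, and up to 4 pathway genes per direction and line are named by adjusted p. Of the listed pathway genes, 1 had no row. Seed matches used GENCODE M21 3′UTRs and promoters used RefSeq, both of an older build than the files, so those coordinates apply to GRCm38.p6. The p-values measure the spread between samples that the study calls independent.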

Additional observations from a re-analysis of the deposited data

Results flagged for a closer look

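Pon3, a paraoxonase and not one of the 32 members, was flagged because its 200f effect differed between the lines by the interaction test. It had 4.01, 3.40 and 3.32 CPM in ID8-200f against 10.9, 11.1 and 11.4 CPM in ID8EV, and 3.25, 4.10 and 4.13 CPM in 28-2-200f against 5.59, 4.98 and 4.25 CPM in 28-2EV, a difference of 1.27 ± 0.27 in log2 fold change (28-2 minus ID8, adjusted p = 0.0260). Mafg, a small MAF partner of NRF2, and Pgls, the lactonase of the pentose phosphate pathway, were flagged because every 200f library lay above every empty vector library in ID8 and below every one in 28-2. The differences, -0.45 for Mafg and -0.64 for Pgls in log2 fold change, did not pass the interaction test. Mafg had 133, 139 and 138 CPM against 121, 123 and 128 CPM in ID8, and 119, 135 and 131 CPM against 163, 166 and 150 CPM in 28-2. Pgls had 53.1, 58.0 and 50.7 CPM against 43.9, 46.1 and 37.8 CPM in ID8, and 53.6, 52.4 and 49.2 CPM against 70.9, 57.2 and 63.2 CPM in 28-2. With groups of 3 libraries, no single library was tested as an outlier.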

How the results depend on the processing

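Of 285 values of the 19 members called in a line under the alternatives in ID8, 261 kept their direction and side of the threshold, 24 lost the call and 0 reversed; in 28-2, 248 kept both, 4 lost and 25 gained a call, and 8 reversed. The reversals were those of 3 members not called in 28-2, whose log2 fold change ran over the left-out libraries from -0.53 to 0.11 (Blvrb), from -0.21 to 0.10 (Fth1) and from -0.41 to 0.45 (Txnip, and 0.0052 with a replicate block). With all 4 groups in one fit, ID8 had 9 higher and 1 lower (with 2.65% and 4.75% of all genes) and 28-2 had 10 and 1 (9.12% and 7.95%). The empty vector comparison had 4 and 1 in that fit (2.34% and 4.65%), which pools the spread of all 4 groups. DESeq2 gave 8 higher and 1 lower in 28-2, 4 higher between the empty vector lines and 1 higher in the interaction. The shares of all genes were 4.22%, 4.43%, 2.05% and 3.44%. Without a filter there were 4 and 1 in 28-2, 3 higher between the empty vector lines and 1 lower in the interaction (Slc7a11). Limma on log2(TPM + 1) or log2(TPM + 0.1) called 1 in the interaction (Cbr3). Among the other pathway genes, DESeq2 called 2 higher and 12 lower in 28-2, with 4.22% and 4.43% of all genes. It called 8 of them higher between the empty vector lines (2.05% of all genes) and 4 lower in the interaction (1.68%). Leaving out 1 library gave 13 to 16 higher and 2 to 5 lower in ID8 (12.1% to 15.2% and 15.1% to 18.1% of all genes). In 28-2 it gave 0 to 4 and 0 to 2 (0.534% to 5.06% and 0.214% to 5.49%). Between the empty vector lines it gave 0 to 5 and 0 to 0 (0.0822% to 4.90% and 0.792% to 5.41%). In the interaction it gave 0 to 1 and 0 to 0 (1.17% to 3.62% and 0.323% to 1.75%). The cause of these shifts was not tested. The main fits treated the samples as unpaired. Deviations of same-numbered libraries correlated at -0.10, 0.05 and -0.03 in ID8 and 0.21, 0.11 and -0.30 in 28-2. Those of differently numbered libraries ran from -0.09 to 0.13 in ID8 and from -0.47 to 0.44 in 28-2. With 3 libraries per group, these values cannot show whether samples were paired. With the block, 15 members were higher and 3 lower in ID8, 1 and 0 in 28-2, and 2 higher between the empty vector lines. Shares of all genes were not counted for the fits with the block, without a filter or with limma. Reads from overlapping gene models and pseudogenes, the unstated strand setting and 3 libraries per group limit what is shown.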
